A study of Caenorhabditis elegans with 12 samples.

Results

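Sperm of the nematode Caenorhabditis elegans contain large amounts of the major sperm proteins of the msp- family, and beside them a further set of proteins made in the same germ cells. The 38 genes described here are the ones whose name on the array, after its WormBase identifier, begins spe-, ssp-, ssq-, nspd- or msd- with a number, together with gsp-3 and gsp-4. They are 38 of 20018 genes measured and rest on 39 array features, since spe-39 has 2. They divide into 17 spe- genes, 6 ssp- genes, 4 ssq- genes, 9 nspd- genes and 2 gsp- genes. No array name begins msd-, so that family has 0 members. The rule uses names and no measured value.

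Whole worms that had been synchronized as dauer larvae were loaded on agar medium and carried for 16.5 days at 23 °C on the Shenzhou-8 mission. Static flight worms sat in a slot without rotation, in microgravity (1.92 mGy of radiation), and centrifuged flight worms sat on a centrifuge that gave 1 g (2.27 mGy). Ground control worms were kept on Earth in a static slot of the same kind of device, for the same 16.5 days and temperature, in a run started 2 days later. These 3 groups were collected 7 h after the run or the landing. Transport control worms were not transported, and neither their time in culture nor their collection time is given in the sources used here. Each of the 4 conditions holds 3 arrays, 1 each of the dys-1(cx18) mutant (strain LS292), the ced-1(n1995) mutant (strain MT4930) and the wild type N2. dys-1 encodes the worm dystrophin, a muscle protein, and ced-1 encodes a receptor for the engulfment of dying cells. The submitters describe technical repeats and no repeated samples, so the strain is the only replicate within a condition. The p-values below rest on the spread left between these arrays after condition and strain are fitted, moderated over all genes. The spread between repeated cultures of a strain in a condition was not measured. The files give each feature a normalized signal without a detection call. A gene with a low signal is therefore not called unexpressed here. Each gene has its own probes, so a higher signal in one gene than in another is not read as more RNA. In RNA of whole worms, fewer sperm-forming cells and less RNA per cell cannot be told apart.

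The mean intensity over all genes ran from 818.7 on the ced-1 ground control array to 987 on the dys-1 transport control array, and the other 10 arrays lay between 915.7 and 971.8. Correlations between the strains of a condition, over all genes, were 0.929 to 0.969. The signal of dys-1 was 7.29 to 8.68 in the dys-1 strain, 7.32 to 8.17 in the ced-1 strain and 7.25 to 7.51 in N2, and that of ced-1 was 10.15 to 10.68, 9.56 to 10.28 and 9.89 to 10.45, so RNA level did not separate the mutants from N2 and does not check their labels. Over all genes, 31.1% had their lowest condition mean in transport control and 31.1% their highest in static flight.

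In hermaphrodites the germ line first makes sperm, in the last larval stage, and then switches to oocytes, while males make sperm throughout adult life. Sperm genes are transcribed in spermatocytes, and transcription has largely stopped when spermatids form. The spe- genes were found as mutants with defective sperm. Some of them act in the membranous organelles and fibrous bodies that load the spermatid, some in the activation that turns the round spermatid into a crawling sperm, and some at the sperm surface during fertilization. The ssp- genes encode small proteins with a major sperm protein domain, the ssq- genes are named for sperm-specific expression, the nspd- genes encode short nematode-specific peptides that are nearly identical to one another, and gsp-3 and gsp-4 encode sperm-specific protein phosphatases of the PP1 class. Signals of nearly identical nspd- and ssq- genes can be shared between probes, so their single values are uncertain and they do not count as separate observations.

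The condition mean was highest in static flight for 34 of the 38 genes and lowest in transport control for 33. The median log2 intensity of the 38 genes was 8.42 on the dys-1 array, 9.24 on the ced-1 array and 9.03 on the N2 array of static flight. In centrifuged flight it was 7.88, 8.14 and 7.83 in the same order of strains. In ground control it was 7.96, 8.55 and 8.18, and in transport control 7.19, 7.18 and 7.09. The transport control arrays thus lay below all 9 others, while the dys-1 array of static flight lay below the ced-1 array of ground control. The distance between the highest and lowest condition mean of a gene had a median of 1.96 on the log2 scale over the 38 genes, against 0.51 over all genes. It was over 1 for 28 of the 38 genes and for 14.9% of all genes. ssq-4 had the largest distance, 3.20, and spe-38 the smallest, 0.08.

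**Figure D1:**
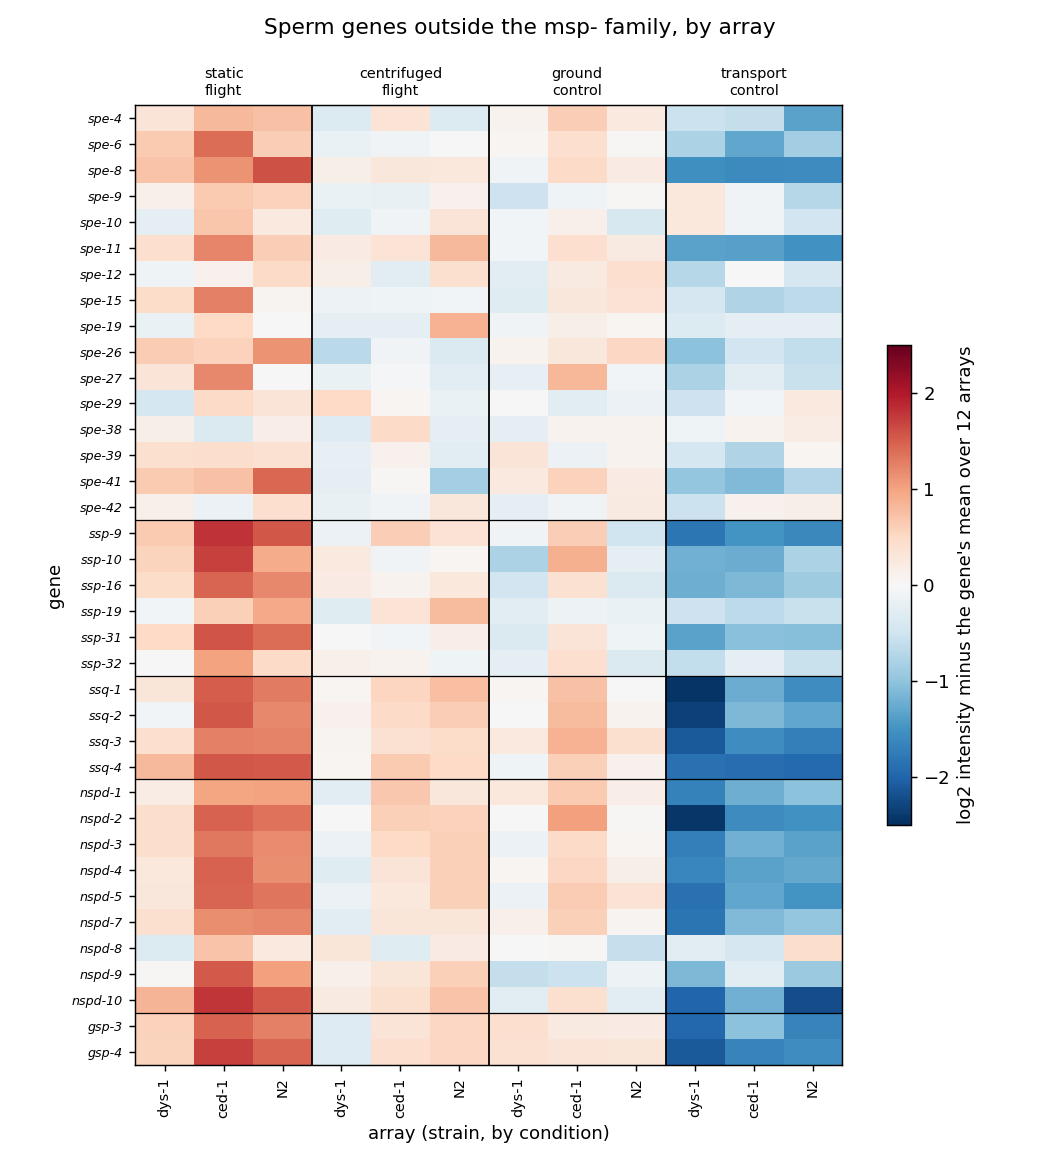
Log2 intensity of 37 of the 38 genes (rows, by family) on each of the 12 arrays (columns, by condition and strain), minus the gene's own mean over the 12 arrays. The transport control columns are low for most rows, the static flight columns are high, and the rows of spe-38 and nspd-8 show no such order.

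The largest differences of these genes were those from transport control. All the comparisons with it share the same 3 transport control arrays, so their values are given side by side and are not separate evidence. In ground control against transport control, 22 of the 38 genes were higher and 0 were lower at an adjusted p under 0.05 (limma over all 20018 genes, Benjamini-Hochberg adjustment), where 3.09% of all genes were called higher and 2.25% lower. In static flight against transport control, 30 of the 38 were higher and 0 lower, where 8.73% of all genes were called higher and 6.38% lower. In centrifuged flight against transport control, 20 were higher and 0 lower, where 2.81% of all genes were called higher and 1.82% lower. The median difference of the 38 genes was 1.14, 1.96 and 1.13 on the log2 scale in these comparisons, while that of all genes was -0.04, -0.01 and 0.00. The 3 arrays of one condition lay wholly above the 3 of transport control for 28 of the 38 genes in ground control (8.98% of all genes), for 31 in static flight (13.6%) and for 28 in centrifuged flight (10.2%). They lay wholly below for 0 of the 38 in each (10.6%, 11.2% and 9.08% of all genes). At an unadjusted p under 0.05, 26 of the 38 were higher in ground control (8.34% of all genes), 31 in static flight (14.5%) and 24 in centrifuged flight (8.58%), and 0 were lower (11.1%, 13.9% and 8.41%). With the nspd- genes averaged to 1 value and the ssq- genes to 1 value, a choice made after the values were seen, 13, 20 and 10 of the 27 values that are then left were higher.

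**Figure D2:**
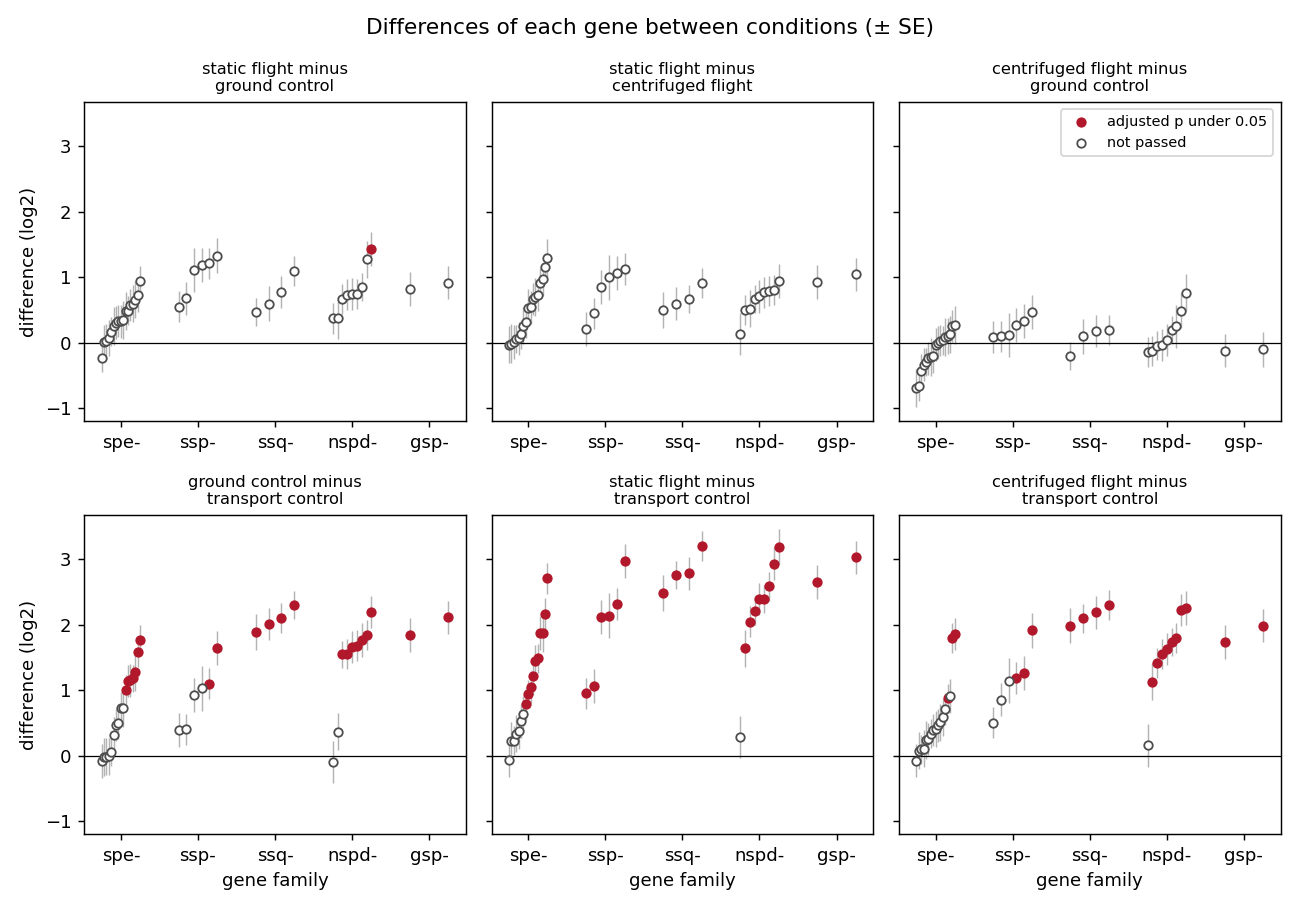
Difference between 2 conditions of each gene (log2, ± SE from the fit over 12 arrays), by gene family, in 6 comparisons. Filled points passed at an adjusted p under 0.05, which only nspd-10 did among the comparisons of the upper row, while 22, 30 and 20 of the 38 genes did in the lower row.

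The gsp- genes were among the genes with large differences. They encode the phosphatases GSP-3 and GSP-4, which act in sperm meiosis and in the crawling movement of the sperm. Per-array values here and below are log2 intensities in the order dys-1, ced-1 and N2. gsp-4 had 11.19, 12.35 and 12.09 in static flight, 10.32, 11.05 and 11.14 in centrifuged flight, 11.01, 10.95 and 10.93 in ground control and 8.53, 8.95 and 9.07 in transport control. The transport control arrays lay below all 9 others, and the static flight arrays lay above the other conditions. The differences of gsp-4 from transport control were 3.03 ± 0.25 for static flight (adjusted p = 3.69e-06), 1.98 ± 0.25 for centrifuged flight (adjusted p = 0.000328) and 2.11 ± 0.25 for ground control (adjusted p = 0.000233). gsp-3 had 11.70, 12.60 and 12.38 in static flight, 10.81, 11.46 and 11.65 in centrifuged flight, 11.54, 11.35 and 11.34 in ground control and 9.16, 10.10 and 9.46 in transport control. Its pattern was the same, with differences from transport control of 2.65 ± 0.26, 1.73 ± 0.26 and 1.83 ± 0.26 in that order of conditions.

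All 4 ssq- genes were called higher than in transport control in each of the 3 comparisons. ssq-4 had 11.09, 11.83 and 11.80 in static flight, 10.31, 10.93 and 10.77 in centrifuged flight, 10.17, 10.87 and 10.38 in ground control and 8.41, 8.37 and 8.33 in transport control. The strains of transport control were nearly equal for ssq-4. Its difference was 3.20 ± 0.23 for static flight, a 9.2-fold higher signal and the largest among the 38 genes (adjusted p = 1.97e-06). It was 2.30 ± 0.23 for centrifuged flight and 2.10 ± 0.23 for ground control. ssq-3 had 11.16, 12.0 and 11.98 in static flight, 10.82, 11.13 and 11.19 in centrifuged flight, 10.99, 11.61 and 11.15 in ground control and 8.65, 9.19 and 9.03 in transport control. Of the 38 genes it had the largest difference of ground control from transport control, 2.29 ± 0.22 (adjusted p = 7.43e-05). ssq-1 had 10.99, 12.21 and 11.98 in static flight, 10.73, 11.22 and 11.44 in centrifuged flight, 10.74, 11.42 and 10.71 in ground control and 8.25, 9.44 and 9.15 in transport control. ssq-2 had 10.64, 12.27 and 11.90 in static flight, 10.82, 11.19 and 11.32 in centrifuged flight, 10.72, 11.51 and 10.80 in ground control and 8.38, 9.58 and 9.40 in transport control. In ssq-1, ssq-2 and ssq-3 the dys-1 array of transport control was the lowest of the 12, which was not so in ssq-4. Their differences of static flight from transport control were 2.78 ± 0.25, 2.48 ± 0.27 and 2.76 ± 0.22.

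The nspd- genes were mostly higher than in transport control. Of the 9 genes, 8 were called higher in static flight than in transport control, 8 in centrifuged flight and 7 in ground control. nspd-10 had 10.24, 11.17 and 10.93 in static flight, 9.62, 9.78 and 10.11 in centrifuged flight, 9.13, 9.79 and 9.12 in ground control and 7.41, 8.19 and 7.17 in transport control. The ced-1 array of transport control stood above the other 2 of its condition and was still below the ground control arrays. The differences of nspd-10 from transport control were 3.19 ± 0.26 in static flight (adjusted p = 3.69e-06), 2.25 ± 0.26 in centrifuged flight (adjusted p = 2e-04) and 1.76 ± 0.26 in ground control (adjusted p = 0.00112). nspd-2 had 11.10, 12.14 and 12.02 in static flight, 10.66, 11.25 and 11.23 in centrifuged flight, 10.66, 11.69 and 10.70 in ground control and 8.23, 9.09 and 9.15 in transport control. Its static flight arrays overlapped those of ground control, and both lay above transport control. Its differences from transport control were 2.93 ± 0.25, 2.23 ± 0.25 and 2.19 ± 0.25 for static flight, centrifuged flight and ground control. nspd-5 had 10.78, 11.95 and 11.83 in static flight, 10.34, 10.76 and 11.09 in centrifuged flight, 10.35, 11.13 and 10.84 in ground control and 8.62, 9.18 and 9.0 in transport control. nspd-3 had 11.42, 12.30 and 12.16 in static flight, 10.84, 11.48 and 11.58 in centrifuged flight, 10.83, 11.46 and 11.04 in ground control and 9.28, 9.77 and 9.64 in transport control. In both genes the dys-1 array was the lowest of each condition. nspd-1, nspd-4 and nspd-7 differed from transport control by 2.04 ± 0.23, 2.39 ± 0.24 and 2.21 ± 0.23 in static flight, all called higher.

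nspd-9 and nspd-8 stood apart in this family. nspd-9 had 8.56, 10.05 and 9.55 in static flight, 8.66, 8.82 and 9.13 in centrifuged flight, 7.94, 8.0 and 8.41 in ground control and 7.40, 8.24 and 7.60 in transport control. The ced-1 array of transport control overlapped the ground control arrays, and the difference between these conditions was 0.37 ± 0.28 (adjusted p = 0.526). Against transport control, nspd-9 was called higher in static flight, by 1.64 ± 0.28 (adjusted p = 0.00138), and in centrifuged flight, by 1.12 ± 0.28 (adjusted p = 0.0367). nspd-8 had 6.24, 7.29 and 6.83 in static flight, 6.88, 6.29 and 6.80 in centrifuged flight, 6.59, 6.62 and 6.02 in ground control and 6.30, 6.18 and 7.04 in transport control. All the conditions overlapped for nspd-8.

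All 6 ssp- genes were called higher in static flight than in transport control, 3 in centrifuged flight (ssp-9, ssp-16 and ssp-31) and 2 in ground control (ssp-9 and ssp-31). ssp-9 had 9.44, 10.60 and 10.35 in static flight, 8.65, 9.40 and 9.15 in centrifuged flight, 8.70, 9.41 and 8.29 in ground control and 6.98, 7.30 and 7.18 in transport control. All the other 9 arrays lay above the 3 transport control arrays. The difference of ssp-9 was 2.97 ± 0.26 for static flight, a 7.86-fold higher signal (adjusted p = 5.79e-06), and 1.64 ± 0.26 for ground control (adjusted p = 0.00186). ssp-31 had 8.16, 9.23 and 9.06 in static flight, 7.66, 7.59 and 7.82 in centrifuged flight, 7.30, 7.98 and 7.55 in ground control and 6.31, 6.62 and 6.60 in transport control. Its differences from transport control were 2.31 ± 0.24, 1.18 ± 0.24 and 1.10 ± 0.24 for static flight, centrifuged flight and ground control. ssp-19 had 6.82, 7.48 and 7.84 in static flight, 6.60, 7.24 and 7.69 in centrifuged flight, 6.63, 6.76 and 6.73 in ground control and 6.39, 6.24 and 6.33 in transport control. Here the N2 and ced-1 arrays of both flown conditions were high and the dys-1 arrays lay near the ground control. The static flight difference of ssp-19 from transport control was 1.06 ± 0.26 (adjusted p = 0.0129). ssp-10, ssp-16 and ssp-32 differed by 2.14 ± 0.34, 2.11 ± 0.26 and 0.95 ± 0.24 in the same comparison.

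Of the 17 spe- genes, 10 were called higher in static flight than in transport control, 7 in ground control and 3 in centrifuged flight. Among the 5 genes of sperm activation, spe-8 encodes a tyrosine kinase, and spe-12, spe-19, spe-27 and spe-29 act with it in the activation of hermaphrodite spermatids. spe-8 had 9.59, 10.0 and 10.48 in static flight, 9.03, 9.17 and 9.16 in centrifuged flight, 8.81, 9.37 and 9.09 in ground control and 7.36, 7.30 and 7.31 in transport control. No conditions overlapped for spe-8 other than centrifuged flight and ground control. Its differences from transport control were 2.70 ± 0.23 (adjusted p = 5.1e-06), 1.79 ± 0.23 (adjusted p = 0.000426) and 1.76 ± 0.23 (adjusted p = 0.000488) for static flight, centrifuged flight and ground control. spe-27 was called higher in static flight, by 1.05 ± 0.25 (adjusted p = 0.0107), and not in the other 2 comparisons. The remaining 3 genes of this pathway passed in none.

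spe-12 had 6.31, 6.52 and 6.90 in static flight, 6.57, 6.14 and 6.83 in centrifuged flight, 6.14, 6.65 and 6.85 in ground control and 5.70, 6.44 and 6.0 in transport control. spe-19 had 6.33, 7.0 and 6.48 in static flight, 6.27, 6.27 and 7.37 in centrifuged flight, 6.41, 6.65 and 6.56 in ground control and 6.17, 6.26 and 6.26 in transport control. The conditions of spe-12 all overlapped. The transport control arrays of spe-19 lay just below the other 9, and its N2 array of centrifuged flight was the highest of the 12. spe-29 had 6.08, 6.99 and 6.84 in static flight, 7.02, 6.58 and 6.36 in centrifuged flight, 6.52, 6.26 and 6.37 in ground control and 6.0, 6.46 and 6.77 in transport control, with all conditions overlapping. The differences of static flight from transport control were 0.53 ± 0.25, 0.37 ± 0.28 and 0.22 ± 0.29 for spe-12, spe-19 and spe-29, with adjusted p-values of 0.19, 0.422 and 0.681.

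A further 7 spe- genes act in sperm organelles, cell division and protein sorting. spe-4 encodes a presenilin-like protein of the membranous organelles. It had 8.21, 8.69 and 8.62 in static flight, 7.54, 8.24 and 7.55 in centrifuged flight, 7.98, 8.51 and 8.12 in ground control and 7.34, 7.30 and 6.56 in transport control. Ground control lay above transport control by 1.14 ± 0.25 (adjusted p = 0.0146), and centrifuged flight differed by 0.71 ± 0.25 (adjusted p = 0.138). spe-26 encodes a protein of the actin cytoskeleton that spermatocytes need to divide. It had 8.16, 8.11 and 8.65 in static flight, 6.86, 7.43 and 7.18 in centrifuged flight, 7.62, 7.81 and 8.05 in ground control and 6.49, 7.05 and 6.91 in transport control. Its centrifuged flight arrays overlapped transport control, a difference of 0.34 ± 0.22 (adjusted p = 0.497), and its static flight difference was 1.49 ± 0.22 (adjusted p = 0.000431). spe-6, a casein kinase gene, and spe-15, a myosin gene, differed by 1.87 ± 0.26 and 1.21 ± 0.29 in static flight.

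spe-10 encodes a palmitoyltransferase of the organelles. It had 6.44, 7.37 and 6.91 in static flight, 6.37, 6.58 and 6.99 in centrifuged flight, 6.61, 6.80 and 6.28 in ground control and 6.95, 6.58 and 6.19 in transport control, with all conditions overlapping. spe-39 encodes a vesicle sorting protein that acts in many tissues beside sperm. It was called higher in static flight than in transport control, by 0.79 ± 0.25 (adjusted p = 0.0468). The 2 features of spe-39, for transcripts ZC404.3a and ZC404.3b, had ranges of 8.56 to 10.70 and 7.42 to 8.39 over the 12 arrays. They differed in this comparison. ZC404.3a had 10.05, 10.70 and 10.33 in static flight and 9.34, 8.56 and 9.70 in transport control, without overlap. ZC404.3b had 8.39, 7.82 and 8.08 in static flight and 7.42, 7.55 and 8.04 in transport control, with overlap.

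Among the 4 spe- genes of fertilization, spe-41, which encodes a TRP calcium channel of the sperm surface, was the only one called in any comparison with transport control. spe-41 had 8.66, 8.74 and 9.44 in static flight, 7.78, 8.04 and 7.16 in centrifuged flight, 8.26, 8.59 and 8.21 in ground control and 7.04, 6.90 and 7.29 in transport control. Static flight and ground control lay above transport control without overlap, and the N2 array of centrifuged flight lay within it. The differences of spe-41 were 1.87 ± 0.29 (adjusted p = 0.00054), 0.58 ± 0.29 (adjusted p = 0.329) and 1.27 ± 0.29 (adjusted p = 0.0184) for static flight, centrifuged flight and ground control. spe-9 encodes an EGF-repeat surface protein and differed in static flight by 0.64 ± 0.28 (adjusted p = 0.152). spe-38 and spe-42 encode membrane proteins of the sperm. spe-38 had 6.29, 5.78 and 6.32 in static flight, 5.83, 6.62 and 5.93 in centrifuged flight, 5.91, 6.22 and 6.24 in ground control and 6.04, 6.24 and 6.33 in transport control. spe-42 had 6.57, 6.30 and 6.86 in static flight, 6.26, 6.35 and 6.73 in centrifuged flight, 6.21, 6.35 and 6.66 in ground control and 5.90, 6.56 and 6.58 in transport control. All the conditions overlapped for both genes. spe-11, the paternal gene whose product the embryo needs for its eggshell and first division, differed by 2.16 ± 0.24, 1.85 ± 0.24 and 1.59 ± 0.24 for static flight, centrifuged flight and ground control, all called higher.

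The 8 genes not called in static flight against transport control were spe-9, spe-10, spe-12, spe-19, spe-29, spe-38, spe-42 and nspd-8.

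**Figure D3:**
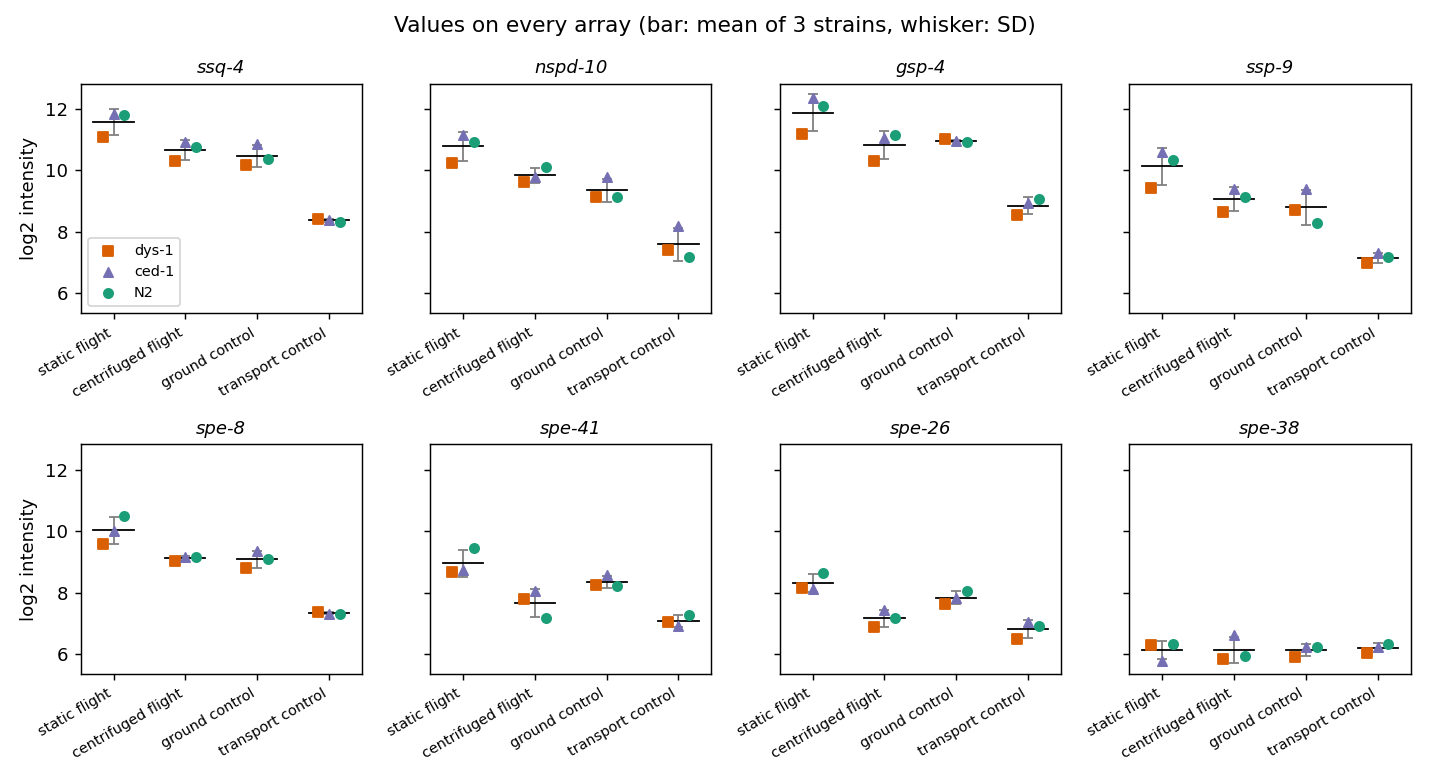
Log2 intensity of 8 genes on every array, by condition, with symbols for the strains dys-1, ced-1 and N2, a bar for the mean of the 3 strains and a whisker for the SD. ssq-4, gsp-4, ssp-9 and spe-8 show transport control below all other arrays, spe-41 and spe-26 show centrifuged flight below static flight and ground control, and spe-38 shows overlap throughout.

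The comparison of static flight with ground control asks whether these genes differed between worms flown without rotation and worms kept on the ground. In static flight against ground control, 1 of the 38 genes was called higher and 0 lower, where 0.19% of all genes were called higher and 0.02% lower. The gene was nspd-10, at 1.43 ± 0.26 (adjusted p = 0.0478), with the 3 static flight arrays above the 3 ground control arrays. The call ended when any 1 of 11 of the 12 arrays was left out, with adjusted p-values up to 0.338, and held without the N2 transport control array. It also ended under 5 of the 10 other settings that give nspd-10 a value, among them the fit without strain as a block (adjusted p = 0.157). The difference itself stayed between 1.29 and 1.60 when single arrays were left out. Without adjustment, 23 of the 38 genes were higher at p under 0.05 (8.33% of all genes) and 0 lower (3.38%). A difference above 0 was found for 37 of the 38 genes and for 11063 of all 20018 genes. Without the N2 ground control array the 23 became 15. With the nspd- genes and the ssq- genes averaged to 1 value each, 15 of the 27 values had an unadjusted p under 0.05. The median difference was 0.62 over the 38 genes and 0.04 over all genes. The 3 static flight arrays lay above the 3 ground control arrays for 16 of the 38 genes, against 10.2% of all genes, and below them for 0, against 3.91%.

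By family, the ssp- genes had the largest median difference of static flight from ground control, 1.15, and the gsp- genes had 0.87. The nspd- genes had 0.74, the ssq- genes 0.68 and the spe- genes 0.33. After nspd-10, the largest differences were those of ssp-9 at 1.33 ± 0.26 (adjusted p = 0.06) and nspd-9 at 1.27 ± 0.28 (adjusted p = 0.0817). Neither passed, and both had static flight arrays wholly above ground control. Low differences were those of spe-38 at 0.0 ± 0.26 and spe-12 at 0.03 ± 0.25. Within strains, the median difference of the 38 genes was 0.37 in dys-1, 0.73 in ced-1 and 0.92 in N2. In the same comparison 18 of 18 oocyte markers had a difference above 0, with a median of 0.89, and 0 of them passed. This list includes vitellogenin (yolk protein) genes, and other vitellogenin genes are among the adult soma markers. The oocyte list here and below thus does not separate oocytes from adult soma. Of 10 adult soma markers, 2 collagen genes were called higher, col-19 by 2.21 ± 0.37 and col-7 by 1.75 ± 0.30. Both calls ended in the fit with no replicate block (adjusted p = 0.1 and 0.157), and each held for 4 of the 12 ways to leave out 1 array, with adjusted p-values up to 0.338. The part of these other tissues and stages in the values of the sperm genes was not tested.

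Static and centrifuged flight shared the flight and differed in rotation and in radiation dose (1.92 and 2.27 mGy). In static flight against centrifuged flight, 0 of the 38 genes were called in either direction with limma, where 0.005% of all genes were called higher. Without adjustment, 23 were higher at p under 0.05 (7.94% of all genes) and 0 lower (4.02%). With the nspd- genes and the ssq- genes averaged to 1 value each, 16 of the 27 values had an unadjusted p under 0.05. The median difference was 0.66 over the 38 genes and 0.00 over all genes. The arrays did not overlap for 17 of the 38 genes, all higher in static flight, against 8.54% of all genes higher and 4.88% lower. With array quality weights, 7 of the 38 genes were called higher, together with 1.5% of all genes in either direction. The largest differences were those of spe-41 at 1.29 ± 0.29 (adjusted p = 0.104), spe-26 at 1.15 ± 0.22 (adjusted p = 0.0824) and ssp-31 at 1.13 ± 0.24 (adjusted p = 0.104). spe-26 had its 3 centrifuged flight values below all values of static flight and of ground control. The lowest differences were those of spe-19 at -0.03 ± 0.28, spe-29 at -0.02 ± 0.29 and spe-38 at 0.0 ± 0.26. By family the medians were 0.98 for the gsp- genes, 0.92 for ssp-, 0.70 for nspd-, 0.63 for ssq- and 0.53 for spe-. Within strains the median over the 38 genes was 0.45 in dys-1, 0.89 in ced-1 and 0.59 in N2. The oocyte markers again had 18 of 18 differences above 0 (10120 of all 20018 genes), with a median of 0.78 and 0 passing. Their part in the sperm gene values was not tested.

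Centrifuged flight and ground control both had 1 g. In centrifuged flight against ground control, 0 of the 38 genes were called in either direction with limma, where 0.00999% of all genes were called higher and 0.025% lower. Without adjustment 1 gene was higher (3.09% of all genes) and 2 were lower (2.93% of all genes). The gene that was higher was nspd-9 at 0.76 ± 0.28 (adjusted p = 0.75). The genes that were lower were spe-41 at -0.69 ± 0.29 (adjusted p = 0.777) and spe-26 at -0.67 ± 0.22 (adjusted p = 0.719). nspd-10 at 0.49 ± 0.26, ssp-19 at 0.47 ± 0.26 and spe-4 at -0.43 ± 0.25 had the next differences in size and overlapping arrays. The 3 unadjusted calls became 0 without the N2 centrifuged flight array and 1 without the ced-1 ground control array. The arrays did not overlap for 1 gene that was higher (6.2% of all genes) and 3 that were lower (3.88%). The median difference was 0.04 over the 38 genes and 0.05 over all genes. Its sign turned with single arrays, from -0.05 without the N2 ground control array to 0.17 without the ced-1 centrifuged flight array, and it was -0.11 without all N2 arrays. Within strains it was 0.00 in dys-1, -0.25 in ced-1 and 0.25 in N2. These values do not show that the conditions were alike, since the SE of a single gene's difference was 0.21 to 0.34.

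Other genes with sperm functions gave a background for the transport control differences. A further 25 genes bear names of these families in the RefSeq gene table of assembly WBcel235 but not on the array, and are no members here. Of the 25, 15 were called higher in static flight than in transport control, 10 in centrifuged flight and 11 in ground control, and 0 were lower. Over all genes, 8.73%, 2.81% and 3.09% were called higher in these comparisons and 6.38%, 1.82% and 2.25% lower. The largest differences in static flight were ssp-34 at 3.84 ± 0.29, msd-2 at 3.34 ± 0.23, ssp-35 at 3.21 ± 0.31 and msd-1 at 3.09 ± 0.24. The msd- genes encode proteins with a major sperm protein domain, and msd-1 and msd-2 were called higher in static flight than in ground control, by 1.38 ± 0.24 (adjusted p = 0.0433) and 1.31 ± 0.23 (adjusted p = 0.0406). These calls ended in the fit with no replicate block (adjusted p = 0.23 and 0.21). When 1 of the 12 arrays was left out, that of msd-1 held without the dys-1 static flight or the N2 transport control array alone, and that of msd-2 without the N2 transport control array alone. msd-2 had 9.88, 10.62 and 10.48 in static flight on the dys-1, ced-1 and N2 arrays, 9.18, 9.85 and 9.36 in centrifuged flight, 8.69, 9.63 and 8.72 in ground control and 6.79, 7.58 and 6.58 in transport control. Of 30 msp- genes, 29 were higher in static flight than in transport control, 28 in centrifuged flight and 29 in ground control. Of 20 other sperm genes, 12, 5 and 7 were higher in those comparisons, with the largest static flight differences in spch-1, which encodes a sperm chromatin protein, at 3.21 ± 0.23, and smz-2 at 2.97 ± 0.24. Of 21 regulators of the sperm or oocyte fate of germ cells, 1 was called higher in static flight than in transport control. This was no larger a share than the 8.73% of all genes. The gene was fbf-1 at 1.38 ± 0.31, a call that ended without the ced-1 static flight array or the ced-1 transport control array (adjusted p up to 0.0701).

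Stage and adult soma markers also differed from transport control, while the oocyte and male soma markers did so in part or not at all. The summed intensity of 9 dauer and larval stage markers was 1595.8 to 4161.3 in static flight, 2328.6 to 4871.6 in centrifuged flight, 4101 to 7850 in ground control and 21813.5 to 26483 in transport control. Of the 9, 4 were called lower in static flight (6.38% of all genes), 3 in centrifuged flight (1.82%) and 4 in ground control (2.25%). The median difference of the 9 was -0.90, -0.90 and -0.92 on the log2 scale in that order, a smaller change than that of the sums. The largest differences were those of the cuticle gene cut-1 at -4.54 ± 0.57 and the collagen gene col-2 at -3.75 ± 0.38 in static flight. Of 10 adult soma markers, 8, 7 and 6 were called higher in static flight, centrifuged flight and ground control than in transport control, with the adult collagen col-19 at 4.80 ± 0.37 in static flight. Their summed intensity was 16324.4 to 41353.6 in static flight, 15024.5 to 23016.9 in centrifuged flight, 9592 to 16970.3 in ground control and 4019.8 to 7106.7 in transport control. Of 18 oocyte markers, 11, 2 and 0 were called higher in those comparisons, where 8.73%, 2.81% and 3.09% of all genes were. The median log2 intensity of the oocyte markers, vitellogenin genes included, was 9.36 in dys-1, 9.88 in ced-1 and 12.43 in N2 in transport control. The last was the highest of the 12 arrays. The median of the 38 sperm genes in transport control was nearly equal between strains, at 7.19, 7.18 and 7.09 in the same order. Their summed intensity was 8028.9, 11178.6 and 10472.2, and the median of the 20 other sperm genes was 7.50, 8.09 and 8.56. Of 14 markers of germline proliferation and meiosis, 4, 1 and 1 were called higher, and of 13 male soma markers 0 were called in any of the 3. The summed intensity of the male soma markers was 1430.1 to 1808.2 in static flight, 1504.1 to 1574.4 in centrifuged flight, 1570.2 to 1641.3 in ground control and 1507.1 to 2366.3 in transport control. With no detection call in the files, no marker is called unexpressed. The part of these stages and cell types in the sperm gene values was not tested.

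**Figure D4:**
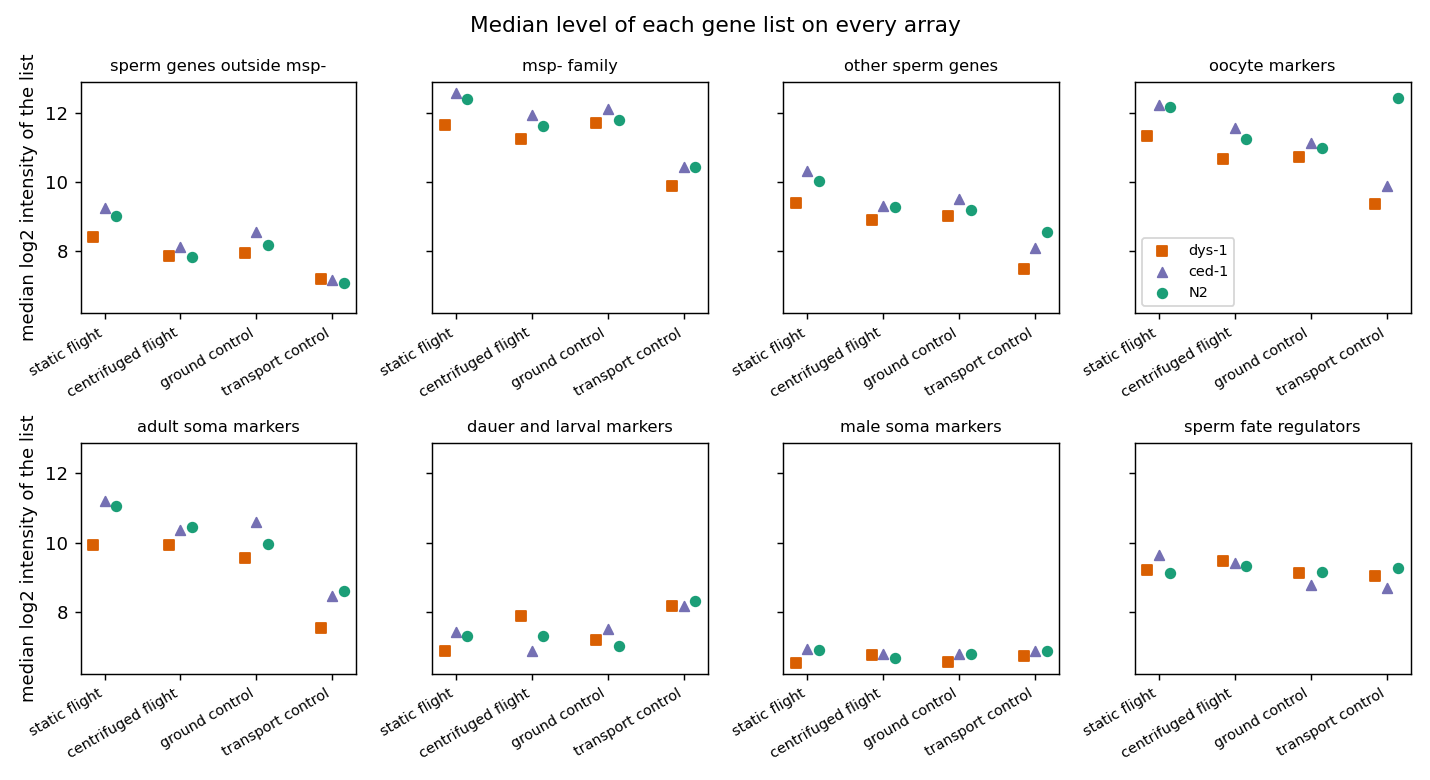
Median log2 intensity of 8 gene lists on every array, by condition, with symbols for the strains dys-1, ced-1 and N2. The sperm genes outside the msp- family, the msp- family and the adult soma markers were lowest on the transport control arrays, the dauer and larval markers were highest there, the oocyte markers on the N2 transport control array stood at 12.43, and the male soma markers stayed between 6.5 and 6.9.

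Between the strains, none of the 38 genes passed. In dys-1 against N2 over all 4 conditions, 0 of the 38 were called by limma in either direction, where 0% of all genes were called. Without adjustment 13 of the 38 genes were lower at p under 0.05 (7.28% of all genes) and 0 were higher (7.59%). The median difference was -0.32 over the 38 genes and -0.03 over all genes, and within conditions it was -0.70 in static flight, -0.41 in centrifuged flight, -0.11 in ground control and -0.30 in transport control. The dys-1 array was the lowest of the 3 strains for 31 of the 38 genes in static flight, 27 in centrifuged flight, 23 in ground control and 23 in transport control. Each of these counts rests on single arrays, and the share over all genes was not taken. They are therefore not read as a trait of the strain. The 13 genes held 7 of the 9 nspd- genes, 3 of the 4 ssq- genes, gsp-4, ssp-19 and spe-42. ssq-2 differed by -0.72 ± 0.23 (adjusted p = 0.212) and nspd-5 by -0.67 ± 0.20 (adjusted p = 0.197), both lower in all 4 conditions. spe-42 was the only one whose 4 dys-1 arrays lay below all 4 N2 arrays, -0.47 ± 0.19 (adjusted p = 0.277), against 2.78% of all genes, and none had them all above (3.82%). Leaving out the dys-1 static flight array took the 13 genes to 4, and leaving out the N2 static flight array or the N2 centrifuged flight array took them to 6. In the fit without condition as a block 1 gene was left. With the nspd- genes averaged to 1 value and the ssq- genes to 1 value, 5 of the 27 values had an unadjusted p under 0.05. In the same comparison 16 of 18 oocyte markers were lower at an unadjusted p under 0.05, with a median of -1.01 that was -2.34 within transport control. The part of these markers in the sperm gene values was not tested.

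In ced-1 against N2, 0 of the 38 genes were called by limma in either direction, where 0% of all genes were called. Without adjustment, 3 were higher at p under 0.05 (2.78% of all genes) and 0 lower (2.51%). They were spe-27 at 0.65 ± 0.21, spe-4 at 0.47 ± 0.21 and ssp-32 at 0.46 ± 0.20, each with an adjusted p of 0.908 and a higher value in all 4 conditions. They became 1 without the ced-1 static flight array, the N2 or ced-1 ground control array or the N2 transport control array, and 0 in the fit without condition as a block. The 4 ced-1 arrays lay below the 4 N2 arrays for 1 gene, spe-42 (0.889% of all genes), and above them for 0 (0.909%). The median difference was 0.13 over the 38 genes and 0.00 over all genes, and within conditions 0.16 in static flight, -0.12 in centrifuged flight, 0.39 in ground control and 0.03 in transport control. The difference between mutant and wild type was also set between the 6 flown arrays and the 6 control arrays as an interaction. 0 of the 38 genes passed for dys-1 and 0 for ced-1, where 0% of all genes were called. Without adjustment 2 were lower for dys-1, spe-10 at -1.08 ± 0.43 and ssp-19 at -1.03 ± 0.37 (2.4% of all genes), and 1 for ced-1, nspd-10 at -0.89 ± 0.40 (2.36% of all genes). None was higher (1.92% and 2.5%).

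**Figure D5:**
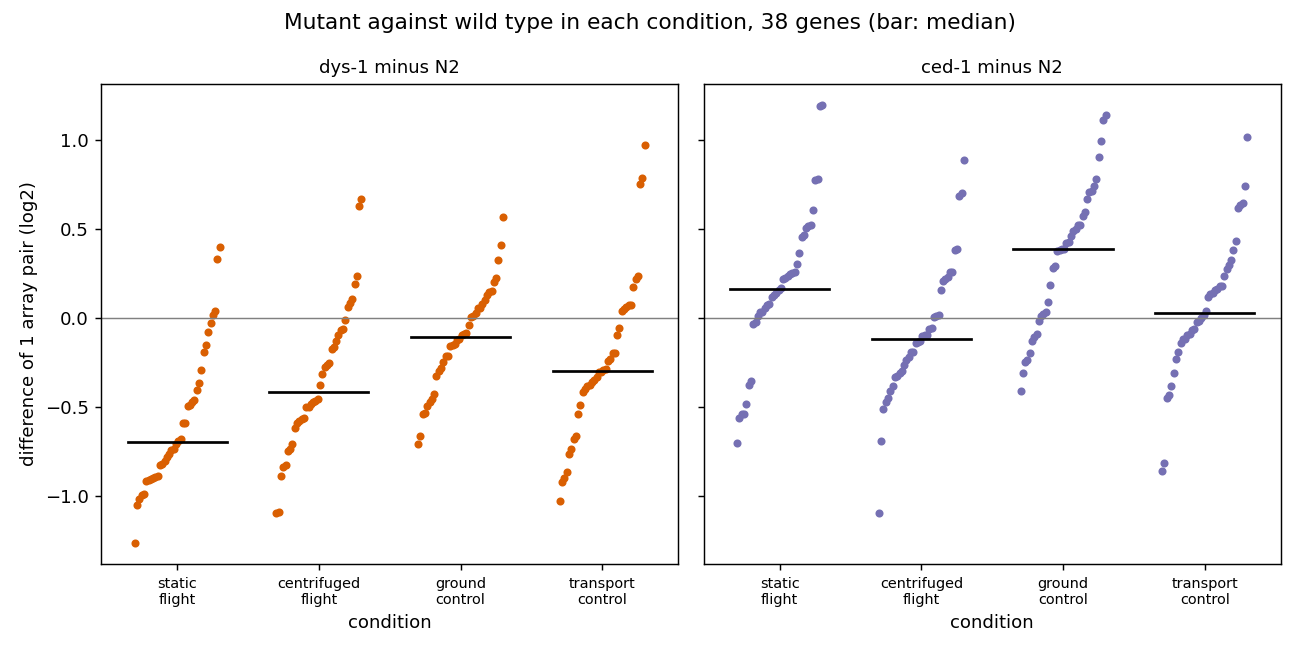
Difference of the mutant array from the N2 array of the same condition (log2) for each of the 38 genes, sorted within the condition, with a bar for the median. The dys-1 medians were -0.70, -0.41, -0.11 and -0.30 in static flight, centrifuged flight, ground control and transport control, and the ced-1 medians were 0.16, -0.12, 0.39 and 0.03, with 0 genes passing in either comparison over all conditions.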

How the data were processed

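Cy3-labelled cDNA from total RNA of whole worms was hybridised to 12 single-colour NimbleGen arrays, 1 per strain and condition. The deposited values are linear intensities from 39.8 to 59366.3, which the authors normalized. The submitters' processing notes name RMA for this step. The RMA version, the slide and the scan are not given in the sources used here. The log2 intensities were averaged over the features of each WormBase gene identifier, without a filter on low signals. All 20018 genes were fitted with limma 3.58.1 in R 4.3.3 on condition and strain, with 6 residual degrees of freedom, with Benjamini-Hochberg adjustment over all genes. A gene was called at an adjusted p under 0.05. Differences are in log2 units, ± SE from the fit, and the interaction of strain and flight was fitted with added terms. The number of arrays limits the precision.

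Strain was a block because the labels give the same 3 strains in each condition. Deviations from the condition means correlated at 0.152 on average between arrays of a strain (-0.124 to 0.468, 18 pairs) and at -0.077 between arrays of different strains and conditions (36 pairs). Since the deviations within a condition cancel, the second value follows largely from the first and is no separate check of the pairing. Values on every array are given for up to 12 genes that passed with the largest change, for the 3 genes with the largest and the 3 with the lowest difference in each comparison of conditions, and for the genes with the highest and the lowest mean signal in each family. Of other lists at most 4 genes are named. A result that this rule would give is not reported here. The members, roles and lists were chosen with earlier results of these data known. The lists are the msp- family, other sperm genes (20 of 23 measured or no member), regulators of sperm fate (21 of 22), and markers of oocytes, germline proliferation and meiosis, male soma, dauer and larval stages, and adult soma. RefSeq names of assembly WBcel235 matched 19428 of the genes. No sequence or coordinate was used here. Alternatives covered the block, the arrays in the fit, normalization, an offset of 50, a filter that keeps the 15013 genes of higher mean signal, the variance model, array weights, the feature used, the series value table (the same values for 30 of the 38 genes) and leaving out arrays or strains.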

Additional observations from a re-analysis of the deposited data

How the results depend on the processing

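Of 904 values under alternative settings, 841 were counted as kept. A single gene was kept if its sign and its side of the threshold stayed. A count of called genes was kept if it equalled the reported count or lay within a set factor of it. This included 30 becoming 20 in static flight against transport control with families averaged. A median was kept if it moved by less than its spread between strains, or between conditions for the mutants. Some of the values could not move. Leaving out an array of a condition that is not compared leaves the difference between the compared conditions unchanged. Counts of 0 that stayed 0 and uncalled genes that stayed uncalled were also counted as kept. The share kept therefore does not measure how firm the calls are. Only the 18 of 36 single-gene differences over 2 SE were followed. A change of sign was thus unlikely from the start, and 0 of them changed sign. The median difference of centrifuged flight from ground control did turn, with -0.05 to 0.17 when single arrays were left out and -0.0015 with quantile normalization. In static flight against ground control, the 1 gene called became 0 with no replicate block, with only the compared groups in the fit, with quantile normalization, with median centring, without the genes of lowest signal, with the nspd- and ssq- families averaged (added after seeing the data) and without any 1 strain. It became 4 with an offset of 50 and 3 with a trended and robust variance, and 0 to 1 when single arrays were left out. Over all genes, 42 were called in that comparison as reported, 1 with no replicate block, 5 with only the compared groups, 6 with quantile normalization, 9 with median centring and 116 with the offset. In static against centrifuged flight, 7 of the 38 genes were called with array weights, where calls over all genes became 301 in place of 1. Against transport control, family averaging left 13 genes called in ground control and 10 in centrifuged flight, of 27 values by construction. All-gene calls in ground control against transport control were 698 with no replicate block and 549 with only the compared groups, in place of 1069, and with no replicate block 22 of the 38 genes were called. In centrifuged flight against ground control they were 3 with no replicate block, 1 with only the compared groups, 4 with quantile normalization and 12 with a trended and robust variance, in place of 7. In dys-1 against N2 they were 64 with array weights and 329 without the N2 ground control array, in place of 0, and 0 of the 38 genes were called in either. The median difference in ground control became 0.87 with the offset, 1.54 without the genes of lowest signal and 1.55 with the series value table, and both of these settings leave out some of the 38 genes. In static flight it became 1.61 with the offset and 1.44 with families averaged. In centrifuged flight it became 0.86 with the offset, 1.41 without the genes of lowest signal, 1.48 with the series value table, 0.71 with families averaged, 1.05 without N2 and 1.21 without ced-1, and 0.99 to 1.35 when single arrays were left out. Leaving out single arrays gave 18 to 23 called genes in ground control, 25 to 30 in static flight and 16 to 21 in centrifuged flight. Causes of these shifts were not tested. Each condition has 3 arrays and no repeated sample, and no detection call or background signal was used.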
